A study of Mus musculus with 12 samples.

Results

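RNA from the marrow-flushed tibia shafts of 4 wild-type (WT) mice was profiled by sequencing, and the transcriptome of that tissue and its spread between the 4 mice are described here. The 4 libraries are those of the 12 in the series whose labels give the wild-type genotype for both genes studied, *Col1a1* +/+ and *Sost* +/+. All 4 mice were males aged 8 weeks, 1 library was made per mouse, and the labels give no drug or other agent. The mice came from a separate colony of mixed FVB/C57BL6 background that was kept beside the colony of the mutant animals, and no other genotype is compared here. Calcein injections are described in the study for mice used in bone histomorphometry, and the sources used here do not say whether these 4 mice received them. The numbers 1 to 4 given to the mice follow their labels and serve as names. As there was a single group, no test between groups was made, and each value is given per mouse or as mean ± SD over the 4 mice.

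The shaft of a long bone is a tube of cortical bone around a marrow cavity. Osteoblasts lay down its matrix, which is mostly collagen type I that later mineralizes, and some of them become buried in it as osteocytes, the source of the Wnt inhibitor sclerostin. Osteoclasts, which descend from blood cell precursors, resorb the matrix. Red marrow in the cavity makes erythrocytes, granulocytes, lymphocytes and platelets, and flushing removes marrow before RNA is extracted. Muscle, tendon and periosteum attach to the outer surface, and cartilage lies at the ends of the bone. A bulk library mixes the RNA of all cells that remain in the sample. Fewer cells of a type and less RNA per cell cannot be told apart in it.

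Between 28737276 (mouse 2) and 44418863 (mouse 3) reads were counted on genes, and values are given as counts per 1000000 of that total (CPM). At least 23989 genes had a count in each mouse, and 14675 genes had a mean CPM of at least 1, of which 13519 are annotated as protein coding. Reads that matched no gene made up 9.54% to 11.1% of the reads with a single place in the genome. Protein-coding genes took 98.5% to 98.6% of the counts. *Ddx3y*, a gene of the Y chromosome, had 90.8 to 109 CPM and *Xist*, the RNA of the inactive X chromosome, at most 0.653 CPM, so that each library matched its label of male. A count of 0 allows a level of up to 0.0675 CPM in the deepest library and 0.104 CPM in the shallowest.

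Some of the most abundant genes have near-identical copies, between which a short read often cannot choose. The 5′ coding stretches of the osteocalcin genes *Bglap* and *Bglap2* and of the alpha-globin genes *Hba-a1* and *Hba-a2* are shown for this reason, read from GENCODE M21 transcripts on GRCm38, with capitals at the bases that differ within a pair. *Bglap* lies on the minus strand at chr3:88383501-88384464 and *Bglap2* on the minus strand at chr3:88377736-88378699. *Hba-a1* lies on the plus strand at chr11:32283511-32284465 and *Hba-a2* on the plus strand at chr11:32296489-32297298. All 4 genes are annotated as protein coding.
Bglap: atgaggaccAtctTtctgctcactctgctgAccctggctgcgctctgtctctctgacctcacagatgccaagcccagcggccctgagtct
Bglap2: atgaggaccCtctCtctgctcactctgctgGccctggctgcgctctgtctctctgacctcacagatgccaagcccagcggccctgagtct
Hba-a1: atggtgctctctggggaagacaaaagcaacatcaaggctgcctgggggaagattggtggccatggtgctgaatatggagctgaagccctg
Hba-a2: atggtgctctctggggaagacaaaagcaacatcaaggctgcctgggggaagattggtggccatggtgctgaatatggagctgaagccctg
Over the 288 coding bases, 284 were the same in *Bglap* and *Bglap2* (98.6%), with 3 differences in the first 90. *Hba-a1* and *Hba-a2* shared 428 of 429 (99.8%), with none of the first 90 differing. Of the windows of 100 bases in the longest transcript, 56.3% in *Bglap*, 56.5% in *Hba-a1* and 62.6% in the beta-globin gene *Hbb-bs* were also found in a transcript of another gene. In *Col1a1*, *Col1a2*, *Sparc* and *Sost* the share was 0%. Values of single globin and osteocalcin genes are therefore uncertain. The reads with more than 1 place in the genome, which the counts leave out, came to 29.3 (mouse 4) to 38.2 (mouse 1) alignments per 100 counts on genes.

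The most abundant transcripts were those of bone matrix, blood cells and the machinery of protein synthesis and respiration. *Col1a2* and *Col1a1*, which encode the chains of collagen type I, had the 2 highest levels in CPM. *Col1a2* had 16187, 12725, 20903 and 29756 CPM in mice 1 to 4 (19893 ± 7380.2 CPM, SD, n = 4), and *Col1a1* had 11716, 9098, 15214 and 23651 CPM (14920.0 ± 6337). Both were lowest in mouse 2 and highest in mouse 4. *Hbb-bs* followed with 15184, 13991, 9984 and 8264 CPM, highest in mouse 1 and lowest in mouse 4. *Sparc*, which encodes the matrix protein osteonectin, had 5368, 4249.8, 6884 and 9688 CPM. *S100a9* and *S100a8*, whose products form the calprotectin of neutrophils, had mean levels of 5661 ± 1492 and 4538 ± 1218 CPM, and both were highest in mouse 2. Of the 30 genes with the highest mean CPM, 10 were members of marrow lists, 3 of bone lists and 2 of muscle lists. The 2 muscle genes were *Myh4*, a fast myosin heavy chain, and *Atp2a1*, the calcium pump of fast fibres. *Myh4* had 572, 24.4, 2057 and 6560.2 CPM, and its place among the 30 rested on mice 3 and 4. The 30 genes held 12.8% of the mean profile, and 1076 genes held 50% of it. The 10 most abundant genes of a mouse took 7.6% (mouse 2) to 10.5% (mouse 4) of its counts.

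**Figure D1:**
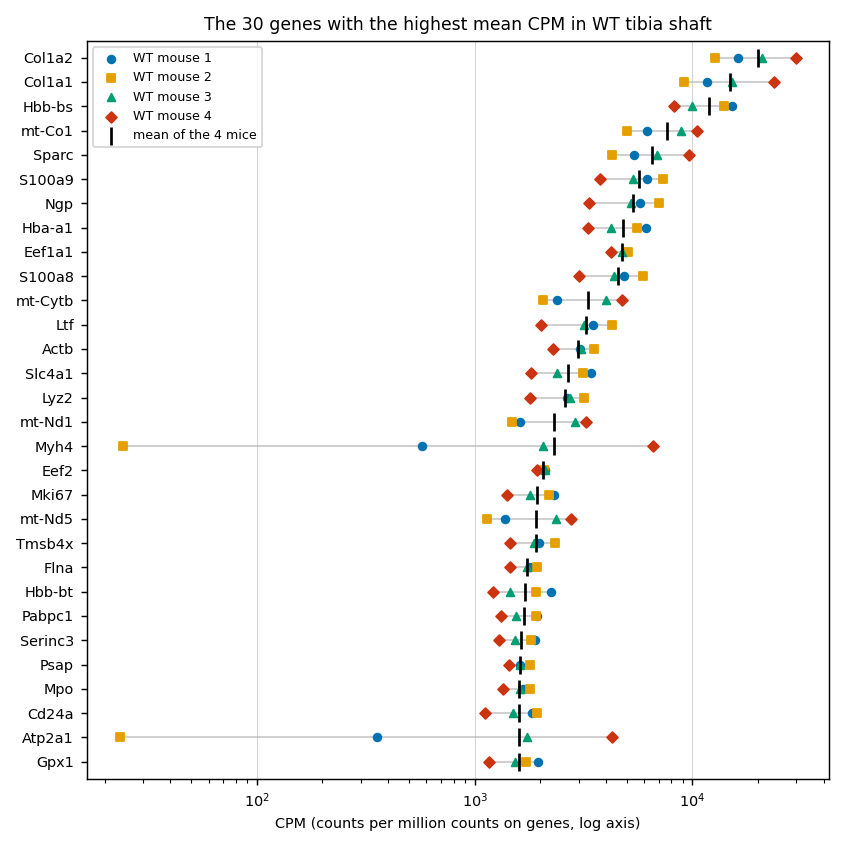
CPM on a log axis of the 30 genes with the highest mean CPM, with 1 point per WT mouse and a bar at the mean. Collagen and mitochondrial genes are highest in mouse 4 and globin and granule genes highest in mouse 1 or 2, while *Myh4* spans from 24.4 to 6560.2 CPM.

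Longer transcripts give more reads, so levels of different genes were compared per length, as transcripts per 1000000 (TPM, from the summed exon length of each gene). On this scale *Hbb-bs* came first at 46933 ± 12197 TPM, before *S100a9* at 32952 ± 8024, *S100a8* at 19865 ± 4926 and *Hba-a1* at 17972 ± 4466 TPM. *Ngp*, which encodes neutrophilic granule protein, had 13248 ± 3480.3 TPM. Blood cell genes thus held the first 4 places, and 9 of the 20 highest genes were members of marrow lists against 3 of bone lists. *Col1a1* ranked 10th at 6988 ± 3135 TPM and *Col1a2* 15th at 4917 ± 1939 TPM. The order of these 2 genes depended on the length used, a comparison added after the values were seen. *Col1a2* had 1601 CPM per kilobase of summed exons against 2273 for *Col1a1*, but 3719.7 against 2516 per kilobase of the longest coding transcript. Between mice, where length plays no part, the ratio of *Col1a2* to *Col1a1* counts was 1.38, 1.4, 1.37 and 1.26 in mice 1 to 4.

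Gene lists of unlike length were summed to give the share of the counts held by the listed genes of each tissue, which is not the share of the tissue itself. The bone lists, 111 genes for matrix, matrix-making cells and osteoclasts, held 5.14, 4.06, 6.41 and 9.12% of the counts in mice 1 to 4 (6.18 ± 2.18%, SD, n = 4). The marrow lists, 120 genes of blood cell lineages, stroma and adipocytes, held 7.57, 8.0, 6.16 and 4.63% (6.59 ± 1.52%). The muscle lists, 40 genes, held 0.442, 0.0977, 1.87 and 4.28% (1.67 ± 1.9%). Bone was lowest in mouse 2 and highest in mouse 4, marrow the other way round, and muscle followed bone. Counting error is small against these differences, as the largest half-width of a 95% Wilson interval for any of the shares was 0.00992 percentage points. Lists of vessel genes held 0.129 ± 0.0218% and lists of cartilage, tendon, epidermis and nerve genes 0.231 ± 0.187%. All of these lists together held 13.5, 12.3, 14.8 and 18.7% of the counts, and the rest lay on genes outside them. Shares add up to a whole, so a larger share for one tissue lowers the others by arithmetic. The bone lists thus shared their order with the muscle lists, and how much of the order of bone genes over the mice went with the amount of muscle or marrow in a sample was not tested.

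Marrow transcripts were measured in every flushed shaft. The ratio of marrow to bone list counts was 1.47, 1.97, 0.96 and 0.508 in mice 1 to 4, a 3.88-fold range that was 2.05-fold without mouse 4. It was above 1 in mice 1 and 2 and below 1 in mice 3 and 4, and where it stands against 1 depends on the genes listed. Per gene length, the marrow lists held 22.2, 23.1, 17.8 and 13.7% of the transcripts and the bone lists 3.25, 2.5, 3.94 and 5.57%. The marrow lists thus exceeded the bone lists in every mouse on that scale.

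**Figure D2:**
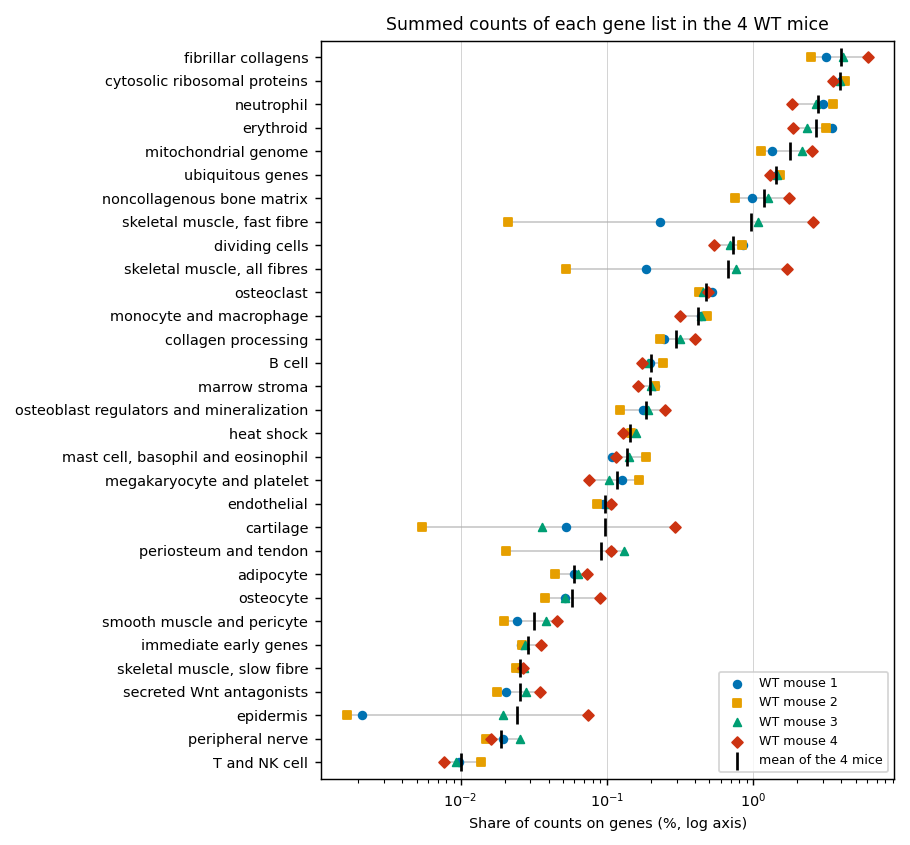
Share of the counts on genes, in percent on a log axis, held by each gene list except the sex-linked one in the 4 WT mice, with 1 point per mouse and a bar at the mean. Fast-fibre muscle, cartilage and epidermis lists are spread over the widest ranges, and slow-fibre, ubiquitous and ribosomal protein lists over the narrowest of those drawn, the first of them being mostly *Atp2a2*.

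Fibrillar collagens held 3.96 ± 1.58% of the counts (SD, n = 4), with 3.14, 2.48, 4.11 and 6.11% in mice 1 to 4. All 10 genes of the list were lowest in mouse 2 and highest in mouse 4, an order found in 21.5% of all 14675 genes with a mean CPM of at least 1 (23.8% after TMM scaling, which corrects for a few very abundant genes). The highest CPM was more than 2 times the lowest in 9 of the 10, against 15.0% of all those genes, and these shares over all genes are the background for the counts in the lists that follow. *Col1a1* and *Col1a2* together took 54.3, 53.8, 56.3 and 58.6% of the bone list counts, so their part of the bone signal moved little. *Col3a1*, the collagen of softer connective tissue, had 1006, 762, 1757 and 2622 CPM. The genes of collagen type V, which joins type I fibrils, had 357 ± 153 (*Col5a1*), 939 ± 353 (*Col5a2*) and 71.7 ± 19.4 CPM (*Col5a3*). *Col11a1* and *Col11a2*, known best from cartilage, had 901 ± 373 and 884 ± 349.8 CPM. The median coefficient of variation (CV) of a member was 40.5% in CPM and 7.78% when scaled to the summed counts of the other members. Single members departed from this, as the ratio of mouse 4 to mouse 2 ran from 1.98 to 4.15.

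The noncollagenous matrix genes showed the same order of mice in 12 of 16 members (21.5% of all genes), and 10 varied over 2-fold (15.0% of all genes). *Spp1*, which encodes osteopontin, had 1113, 503, 1053 and 1564 CPM. *Ibsp*, which encodes bone sialoprotein, had 587, 371, 679 and 984 CPM. Osteocalcin from *Bglap* and *Bglap2* is a late osteoblast product, and *Bglap* had 330.3, 367, 496 and 614 CPM. *Bglap2* had 164, 173, 247 and 289.6 CPM. The pair kept its proportion, since the ratio of *Bglap* to *Bglap2* counts stayed between 2.01 and 2.13. The small proteoglycans had means of 714 ± 231 (*Bgn*, biglycan), 787 ± 211 (*Dcn*, decorin) and 409 ± 152 CPM (*Lum*, lumican). *Chad*, which encodes chondroadherin, had 70.0, 12.2, 96.0 and 125 CPM, the widest range of the list at 10.2-fold, which was 1.78-fold without mouse 2. *Postn*, the periostin gene of periosteum and tendon, had 275, 256, 570.2 and 769 CPM.

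Scaled to collagen type I, a scale chosen after the values were seen, the spread was narrow for some bone genes and wide for others. *Sparc* had 192, 195, 191 and 181 counts per 1000 *Col1a1* and *Col1a2* counts, a CV of 3.07% against 36.0% in CPM. *Serpinh1*, the chaperone of procollagen, had a CV of 8.05% on that scale and *Sp7*, which encodes the osteoblast factor osterix, one of 8.98%. Values relative to collagen ranged 2.58-fold for *Mmp13*, a collagenase, which fell to 1.67-fold without mouse 1 and 1.68-fold without mouse 2. For *Sost* the range was 6.45-fold, with 1.96-fold without mouse 4 and 3.48-fold without mouse 2.

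Enzymes and chaperones that modify, fold, export and cross-link collagen formed a list of 28 genes, of which 20 were lowest in mouse 2 and highest in mouse 4 (21.5% of all genes) and 16 varied over 2-fold (15.0% of all genes). *Serpinh1* had 346, 320.5, 535 and 733 CPM and *Lox*, a cross-linking enzyme, 206, 168, 251 and 395 CPM. *P3h1* and *Crtap*, partners in proline 3-hydroxylation, had 53.2 ± 20.6 and 59.7 ± 15.6 CPM. *Ppib*, the third partner of that complex, had 185, 191, 197 and 199 CPM, a 1.07-fold range. *Colgalt1*, a collagen galactosyltransferase, had 125, 119.6, 119 and 125 CPM. The levels of these last genes, like that of *P4hb* (1.26-fold), differed little between mice. They are also used by cells that make no fibrillar collagen, and whether this bears on their small ranges was not tested.

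Among the osteoblast regulators and mineralization genes, 9 of 20 varied over 2-fold. *Runx2*, the transcription factor that starts osteoblast differentiation, had 60.4, 63.0, 58.1 and 70.0 CPM, a 1.2-fold range, whereas *Sp7*, which acts after it, had 54.6, 51.3, 82.7 and 108 CPM. *Alpl*, the alkaline phosphatase that releases phosphate, had 158, 173, 236 and 348 CPM. *Mmp13* had 672, 204, 564 and 768 CPM and stood below the other mice in mouse 2. *Slc20a1*, a phosphate transporter, had 161, 145, 131 and 107 CPM and was the 1 member lowest in mouse 4. The ligand and the decoy receptor that control osteoclast formation had 6.41 ± 1.93 (*Tnfsf11*) and 12.0 ± 2.67 CPM (*Tnfrsf11b*).

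Osteocyte genes were measured in every mouse, but *Sost* differed from most of them in its order over the mice. *Dmp1*, which encodes a matrix protein of young osteocytes, had 241, 113, 198 and 487 CPM. *Phex*, a protease that controls phosphate, had 95.4, 60.5, 96.5 and 170.0 CPM. *Sost*, which encodes sclerostin, had 50.8, 73.6, 62.2 and 27.9 CPM (53.6 ± 19.5, SD, n = 4). *Sost* was highest in mouse 2, where *Dmp1* and *Phex* were lowest, and lowest in mouse 4, where both were highest. The ratio of *Dmp1* to *Sost* counts was 4.76, 1.54, 3.18 and 17.5, an 11.3-fold range that was 3.09-fold without mouse 4 and 5.48-fold without mouse 2. *Mepe*, a further osteocyte matrix gene, had 55.3, 79.2, 69.8 and 85.6 CPM, and the ratio of *Mepe* to *Sost* was 1.09, 1.08, 1.12 and 3.07. That ratio stayed close to 1 in mice 1 to 3 and was higher in mouse 4 alone. *Sost* was the 1 gene of the 9 osteocyte genes with a mean CPM of at least 1 that was highest in mouse 2 and lowest in mouse 4, while 7 had the opposite order. *Fgf23*, the phosphate hormone of osteocytes, did not exceed 0.743 CPM. *Pdpn*, a gene of early osteocytes, had 14.3 ± 3.8 CPM. *Sost* was highest in the mouse with the largest marrow share and lowest in that with the smallest, and the part of marrow in this was not tested.

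**Figure D3:**
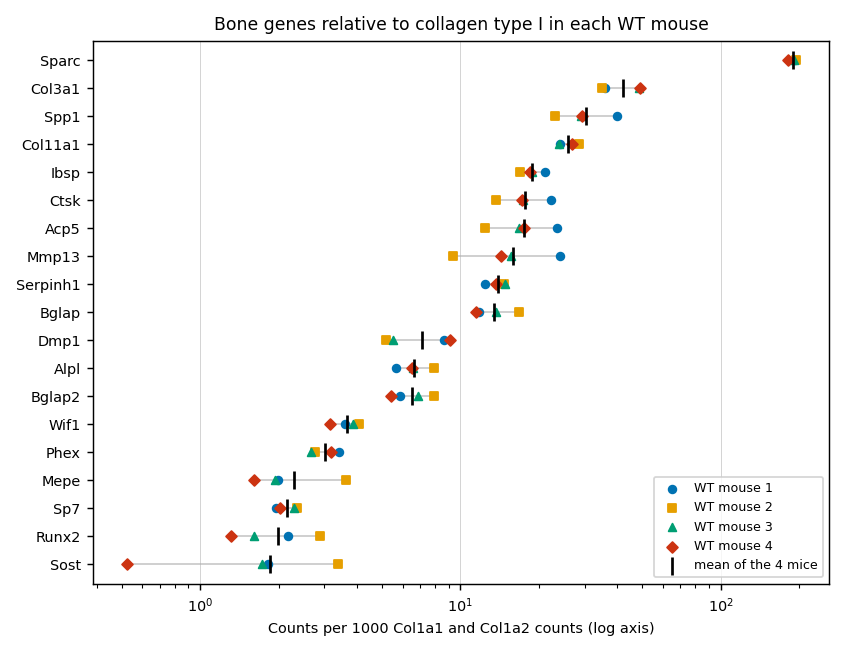
Counts of bone genes per 1000 *Col1a1* and *Col1a2* counts, on a log axis, in each of the 4 WT mice, with a bar at the mean. The points of *Sparc* nearly coincide, while *Sost* ranges from 0.523 in mouse 4 to 3.37 in mouse 2.

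The other secreted Wnt antagonists held 0.0253 ± 0.00775% of the counts. *Wif1*, which binds Wnt ligands, was the most abundant by CPM at 100.5, 89.0, 139 and 168 CPM, and *Sfrp4*, a decoy receptor, had 56.5, 42.4, 60.4 and 75.1 CPM. Both were lowest in mouse 2 and highest in mouse 4, unlike *Sost*. *Dkk3* had 23.3, 22.3, 44.6 and 56.2 CPM. *Dkk1*, which blocks the Wnt co-receptor, had 14.8, 9.74, 15.5 and 26.2 CPM. It was counted in the osteocyte list and is not part of the share given here. *Sostdc1*, a relative of *Sost*, did not exceed 1.92 CPM.

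The osteoclast list split into genes with different patterns over the mice. *Acp5*, which encodes tartrate-resistant acid phosphatase, had 656, 271, 605 and 933 CPM and *Ctsk*, which encodes the collagen-cutting protease cathepsin K, 624, 299.9, 629.9 and 921 CPM. Both were lowest in mouse 2 and highest in mouse 4, and their ratio stayed between 0.904 and 1.05. *Dcstamp*, needed for the fusion of osteoclast precursors, had 8.75, 3.58, 6.98 and 13.5 CPM. *Ocstamp*, with the same role, had 7.45, 1.88, 6.19 and 12.5 CPM, and both were again lowest in mouse 2 and highest in mouse 4. *Car2*, a carbonic anhydrase that erythroid cells also make, had 1829, 1661, 1382 and 956 CPM, highest in mouse 1 and lowest in mouse 4. *Mmp9*, a gelatinase that neutrophils also make, had 1177, 1049, 1066 and 1223 CPM, with the same lowest and highest mouse as *Acp5* and *Ctsk* but a narrow range. *Itgb3*, an integrin that platelets also carry, had 488, 582, 425 and 367 CPM, highest in mouse 2 and lowest in mouse 4. Without these 3 genes, which were picked after their values were seen, the list had 1739, 930.3, 1665 and 2326 CPM, a 2.5-fold range against 1.24-fold with them. That wider range follows in part from the choice of genes, and it was 1.4-fold without mouse 2. *Calcr*, the calcitonin receptor, had 1.62, 0.661, 1.22 and 0.759 CPM.

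Erythroid and neutrophil genes made up 84.7, 83.2, 81.4 and 80.0% of the marrow list counts in mice 1 to 4. Erythroid genes held 3.44, 3.12, 2.33 and 1.86% of the counts, with the adult globins at 71.9, 72.3, 70.7 and 72.1% of the list. All 18 measured erythroid genes were highest in mouse 1 and lowest in mouse 4, an order found in 13.2% of all genes, and none varied over 2-fold. *Alas2*, the enzyme that starts heme synthesis in these cells, had 1636, 1380.1, 1119 and 884 CPM, *Slc4a1*, the anion exchanger of the red cell membrane, 3419, 3132, 2394 and 1819 CPM and *Gata1*, the erythroid transcription factor, 123, 118, 94.8 and 63.4 CPM. The median CV of a member was 26.9% in CPM and 3.26% relative to the other members. The ratio of beta- to alpha-globin counts was 2.39, 2.39, 2.29 and 2.39.

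Neutrophil genes held 2.98, 3.53, 2.68 and 1.84% of the counts, and 19 of 20 were highest in mouse 2 and lowest in mouse 4, an order found in 27.9% of all genes (23.7% after TMM scaling). *Ltf*, which encodes lactoferrin, had 3502, 4258, 3178 and 2019 CPM and *Camp*, the cathelicidin gene, 1493, 1879.8, 1417 and 939 CPM. *Elane*, the neutrophil elastase gene, is used in promyelocytes and had 637, 659, 629 and 495 CPM. *Mpo*, the myeloperoxidase gene of the same stage, had 1664, 1801, 1608 and 1344 CPM. The ranges were 2.11-fold for *Ltf*, 2.0-fold for *Camp*, 1.33-fold for *Elane* and 1.34-fold for *Mpo*. The ratio of 8 late genes (*Ltf*, *Camp*, *Ngp*, *Lcn2*, *Mmp8*, *Cd177*, *Chil3* and *Retnlg*) to 5 early genes (*Elane*, *Mpo*, *Prtn3*, *Ctsg* and *Ms4a3*) was 5.05, 5.73, 4.72 and 3.66 in mice 1 to 4. These genes were grouped after their values were seen, so the ratio is a description of them alone. The ratio of erythroid to neutrophil counts was 1.16, 0.884, 0.867 and 1.01.

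B cell genes held 0.2 ± 0.0287% of the counts. Of the 17, 11 were highest in mouse 2 and lowest in mouse 4 (27.9% of all genes), and 2 varied over 2-fold, a share near the 15.0% of all genes. The 4 members highest in mouse 4 included *Vpreb1*, *Igll1* and *Rag1*, which are used in B cell precursors and did not vary over 2-fold. The other precursor genes of the list, such as *Vpreb3*, *Dntt* and *Rag2*, were not all highest in mouse 4. *Vpreb1*, part of the surrogate light chain, had 21.4, 21.0, 22.7 and 23.6 CPM. *Igll1*, its partner, had 34.3, 33.2, 35.3 and 37.1 CPM. *Rag1*, the recombinase that joins antibody genes, had 80.1, 74.9, 73.3 and 92.4 CPM. The 2 members over 2-fold were *Igkc*, the kappa light chain, with 209, 328, 179 and 161 CPM, and *Jchain*, the joining chain of secreted antibodies, with 101, 177, 71.7 and 67.7 CPM. Both were highest in mouse 2.

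All 9 megakaryocyte and platelet genes were highest in mouse 2 and lowest in mouse 4, the order of 27.9% of all genes (23.7% after TMM scaling). *Ppbp*, a platelet chemokine, had 609, 793, 487 and 358 CPM and *Itga2b*, the integrin of the megakaryocyte lineage, 241, 293, 192 and 148 CPM. Genes of T and NK cells were low, with *Cd3e* at 1.82, 2.58, 1.6 and 1.03 CPM, and 10 of 12 varied over 2-fold. *Prg2*, a granule gene of eosinophils, had 757, 1320.0, 1017 and 833 CPM. *Epx*, their peroxidase, had 198, 366, 265 and 226 CPM, and both were lowest in mouse 1 and highest in mouse 2. Among the monocyte and macrophage genes none of 15 varied over 2-fold, and 10 were lowest in mouse 4 (44.6% of all genes) and 5 in mouse 2. *Csf1r*, the receptor of the macrophage growth factor, had 246, 177, 242 and 244 CPM and *Cd163*, a hemoglobin receptor of tissue macrophages, 66.2, 34.1, 55.5 and 43.7 CPM, both among those lowest in mouse 2. *Lyz2*, the lysozyme gene that neutrophils share, had 2665, 3165, 2735 and 1796 CPM, highest in mouse 2.

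**Figure D4:**
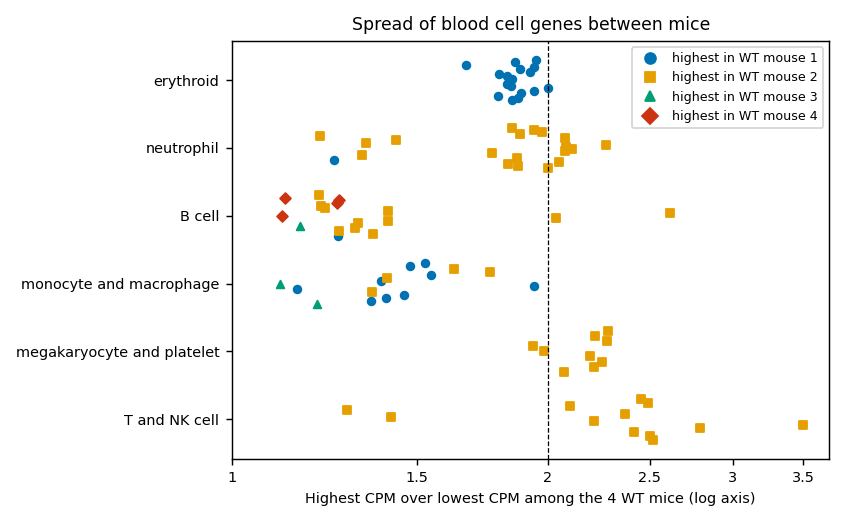
Ratio of the highest to the lowest CPM among the 4 WT mice for each gene of 6 blood cell lists, on a log axis, with the symbol showing the mouse in which the gene was highest and a dashed line at 2-fold. Erythroid genes cluster just under the line and are all highest in mouse 1, B cell and macrophage genes lie mostly below 1.5-fold, and megakaryocyte genes lie around 2-fold and are all highest in mouse 2.

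Marrow stroma genes had a median ratio of highest to lowest CPM of 1.37, against 1.33 over all genes. None of the 9 varied over 2-fold, and 5 of 11 adipocyte genes did (15.0% of all genes). *Cxcl12*, the chemokine that holds blood stem cells, had 1447, 1571, 1396 and 1096 CPM. *Lepr*, the leptin receptor that marks stromal cells, had 124, 91.2, 104 and 92.3 CPM. *Adipoq*, which encodes adiponectin of adipocytes, had 81.8, 81.8, 78.8 and 82.8 CPM, a 1.05-fold range. *Fabp4* and *Cfd*, which adipocytes share with other cells, were lowest in mouse 2 at 175 and 78.2 CPM and highest in mouse 4 at 299 and 173 CPM. Endothelial genes held 0.0973 ± 0.00981% of the counts, with 1 of 17 over 2-fold. *Pecam1*, an adhesion molecule of the vessel lining, had 104, 96.4, 117 and 118 CPM. *Cdh5*, its cadherin, had 50.3, 42.0, 66.5 and 78.5 CPM. *Emcn*, which marks sinusoids and the vessels near forming bone, had 14.9, 10.2, 17.2 and 20.3 CPM. *Vwf*, which megakaryocytes make too, was highest in mouse 2. Smooth muscle and pericyte genes ranged more widely, with 5 of 7 over 2-fold, and *Acta2*, smooth muscle actin, had 28.5, 24.0, 48.8 and 65.5 CPM.

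Of the 5 groups of tissue lists, those of skeletal muscle differed most between the shafts. Their share was 43.8-fold higher in mouse 4 than in mouse 2, and the range was 9.68-fold without mouse 2 and 19.1-fold without mouse 4. Every one of the 13 fast-fibre genes and 18 genes of all fibres was lowest in mouse 2 and highest in mouse 4. *Acta1*, skeletal actin, had 273, 27.3, 1363 and 3709.7 CPM, *Ckm*, muscle creatine kinase, 241, 18.5, 1253 and 2667 CPM and *Ttn*, the giant protein titin, 188, 12.6, 838 and 2091 CPM. Among the fast-fibre genes the ratio of mouse 4 to mouse 2 had a median of 97.5 (from 64.9 to 872), and that of mouse 3 to mouse 1 a median of 4.87 (from 3.6 to 9.08). Slow-fibre genes were scarce. *Myh7*, the slow myosin heavy chain, had at most 6.72 CPM and no count in mouse 2. *Atp2a2*, a calcium pump found in many tissues, held most of the slow-fibre list with 234, 229.8, 237 and 212 CPM, lowest in mouse 4. Without it the list had 12.5, 10.4, 34.9 and 54.4 CPM, a 5.21-fold range (3.35-fold without mouse 4), and 6 of the 8 members with a mean CPM of at least 1 were lowest in mouse 2 and highest in mouse 4, as the fast-fibre genes were. The balance of fast myosins differed too, as *Myh4* to *Myh1* counts stood at 3.5, 1.22, 2.02 and 4.58 in mice 1 to 4. Even in mouse 2, *Myh4* had 701 counts, far above the 3 that a count of 0 allows.

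Cartilage genes also differed widely. All 13 were lowest in mouse 2 and highest in mouse 4, and their summed level was 527, 54.6, 358 and 2911 CPM in mice 1 to 4. *Col2a1*, the main cartilage collagen, had 263, 40.3, 134 and 1496 CPM and *Acan*, which encodes aggrecan, 44.6, 7.55, 53.9 and 214 CPM. *Col10a1*, made by hypertrophic chondrocytes of the growth plate, had 124, 0.0696, 118 and 569 CPM, with 2 reads in all in mouse 2, within the 3 that a count of 0 allows. *Col2a1* was thus still measured in mouse 2 where *Col10a1* was at the limit. The range of the summed list was 53.3-fold, 8.12-fold without mouse 2 and 9.66-fold without mouse 4.

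Of the 10 periosteum and tendon genes, 8 were lowest in mouse 2 (28.5% of all genes) and 7 highest in mouse 4 (32.5% of all genes). Both held for 5 of them (21.5% of all genes). Their sum, most of which was *Prg4* in every mouse, was 1070, 203, 1314 and 1061 CPM in mice 1 to 4. It was highest in mouse 3. Mice 1 and 4 changed places in its order under 3 of the 4 other scalings, TMM and DESeq2 among them. *Prg4*, which encodes the lubricant of joint surfaces and tendon sheaths, had 867, 127, 1022 and 566 CPM, and *Cilp* 47.1, 8.66, 94.1 and 80.8 CPM, both highest in mouse 3. *Tnmd*, a tendon gene, had 5.47, 1.81, 6.96 and 19.3 CPM. *Comp*, a matrix gene of tendon and cartilage, had 82.2, 36.8, 86.2 and 243 CPM, and both were highest in mouse 4. Keratins of epidermis stood above 2 CPM in mice 3 and 4 only. The 6 keratin genes of the list summed to 1.37, 1.46, 107 and 515 CPM, and 8 of the 16 epidermis genes had no count in at least 1 mouse.

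Genes of dividing cells held 0.845, 0.842, 0.693 and 0.537% of the counts, and all 25 were lowest in mouse 4, as were 44.6% of all genes. *Mki67*, a marker of cycling cells, had 2307, 2204, 1804 and 1402 CPM, and *Top2a*, which untangles chromosomes, 900.2, 894, 748 and 595 CPM. Cytosolic ribosomal proteins held 3.89 ± 0.288% of the counts, and 1 of 82 varied over 2-fold. A median of 30% of the 100-base windows of a ribosomal protein gene, and up to 84.4%, also occurred in a transcript of another gene. Immediate early genes, which respond to handling and stress within minutes, held 0.0288 ± 0.00449% of the counts. *Fos* had 9.05, 7.17, 10.3 and 26.7 CPM and *Egr1* 22.2, 12.7, 18.3 and 41.1 CPM, both highest in mouse 4. The inducible heat shock genes *Hspa1a* and *Hspa1b*, which are near-identical, did not exceed 5.04 CPM each. Of their 100-base windows, 48.6% and 49.9% also occurred in a transcript of another gene, so their levels are uncertain.

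Genes of the mitochondrial genome held 1.34, 1.13, 2.16 and 2.54% of the counts, lowest in mouse 2 and highest in mouse 4. The members were very unequal. *mt-Co1*, a subunit of cytochrome c oxidase, had 6172, 5015, 8818 and 10521 CPM, or 15156 ± 5282 TPM. *mt-Co2*, a subunit of the same enzyme, had 5.62, 4.59, 8.6 and 9.13 CPM, or 31.3 ± 10.5 TPM, and *mt-Co3*, a further one, had 17.8, 15.9, 29.7 and 33.4 CPM. Of the windows of 100 bases, 99.5% in *mt-Co2* and 99.9% in *mt-Co3* also occurred in the transcript of another annotated gene, against 30.8% in *mt-Co1* and 0% in *mt-Cytb*. The counts of *mt-Co2* and *mt-Co3* are thus not a measure of their level, and the sum of the list leaves out an unknown part.

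Common reference genes did not all stay level. *Gapdh*, of glycolysis, had 699, 724, 1016 and 1261 CPM, higher in mice 3 and 4, which also had more muscle transcripts. Of its 100-base windows, 78.0% also occurred in a transcript of another gene, so its level is uncertain. *Actb*, cytoplasmic actin, had 3046, 3548, 3063 and 2296 CPM, highest in mouse 2 and lowest in mouse 4. *Tpt1* and *Eef2*, of protein synthesis, had ranges of 1.11-fold and 1.09-fold, though 39.3% of the 100-base windows of *Tpt1* were shared with another gene. Among the least variable genes with a mean CPM of at least 100 was the translation factor *Eif4g2*, with 989, 1009, 992 and 1008 CPM (CV 1.02%). The 10 least variable of 2246 genes included *Eif4g2*, *Snd1*, *Dctn1*, *Ybx3*, *Csnk2a1*, *Txlna*, *Arfgap2*, *Anapc5* and *Lamp1*, with CVs up to 1.73%.

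Across all genes with a mean CPM of at least 1, 2207 (15.0%) differed over 2-fold between the highest and the lowest mouse, and 411 over 10-fold. The median CV was 12.7%, against 3.17% from counting error alone, so most of the spread lay between mice or their samples. The biological coefficient of variation from edgeR, the spread left after counting error, was 0.263 over the 16063 genes that passed the edgeR filter. For genes near 10 CPM it was 0.295 and for genes near 100 CPM 0.199. The value over all filtered genes was 0.223 without mouse 4 and 0.311 without mouse 3. The number of genes over 2-fold was 1390 without mouse 2 and 1102 without mouse 4. Of the 2207, 76.3% were highest in mouse 4, against 32.5% of all genes with a mean CPM of at least 1. A share of 71.5% was lowest in mouse 2, against 28.5%. Of the 2207, 201 belonged to the gene lists. At that CPM, 58.9% of the bone genes, 27.7% of marrow, 94.9% of muscle and 25.0% of vessel genes varied over 2-fold. For the cartilage, tendon, epidermis and nerve lists the share was 91.7%.

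Mice 2 and 4 stood farthest apart. Of all genes with a mean CPM of at least 1, 12.9% were over 2-fold apart between mice 2 and 4 and 2.94% between mice 3 and 4, the smallest share of the 6 pairs. The counts of every pair differed by more than sampling noise, with a chi-square per degree of freedom from 27.3 (mice 1 and 2) to 249.9 (mice 2 and 4). The axis of largest variance of log2(CPM + 1) held 86.6% of it and set the mice in the order 2, 1, 3 and 4. It held 85.9% without the muscle, cartilage, tendon, epidermis and nerve lists. That left out only 39 muscle genes and 48 genes of the other lists. Genes known from muscle but outside the lists stayed in, so the part of muscle in this axis was not tested.

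The most variable genes belonged to a few tissues. Of the 15 protein-coding genes with a mean CPM of at least 10 and the widest ranges, 8 were members of the epidermis and cartilage lists, 3 of the muscle lists, and all were highest in mouse 4. They included *Krt5* with 0, 0, 18.1 and 107 CPM, *Col10a1*, *Col9a1* with 22.7, 0.383, 8.87 and 155 CPM and *Myh2*, the myosin of fast oxidative fibres, with 21.6, 0.661, 196 and 577 CPM. Of the 15 such genes with the widest ranges outside the lists, the first places went to *Krt2*, a keratin, with 0, 0.0696, 25.4 and 125 CPM, *Actc1*, cardiac actin, with 1.87, 0.0696, 8.1 and 99.2 CPM and *Ckmt2*, mitochondrial creatine kinase of striated muscle, with 13.3, 0.348, 103 and 145 CPM. Of these genes outside the lists, 14 were lowest in mouse 2 and highest in mouse 4, as were 64.7% of all genes over 2-fold. The sums of the muscle, bone and vessel lists all had that order too. These 15 genes, picked for their range in the same mice, also held *Abra*, *Lmod3*, *Smpx*, *Smyd1* and *Myom2*, which are known from striated muscle.

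**Figure D5:**
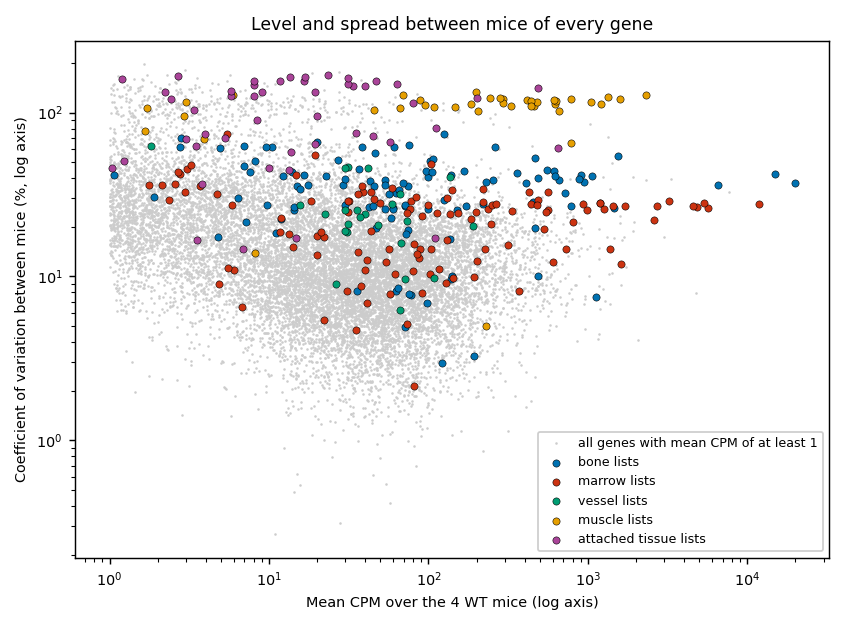
Mean CPM and coefficient of variation between the 4 WT mice of every gene with a mean CPM of at least 1, both on log axes, with members of the tissue lists in colour. Muscle genes and many genes of attached tissues lie at the top, with a median CV of 113% for muscle, above bone genes with 36.0% and marrow genes with 24.8%.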

How the data were processed

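Poly(A) RNA of the tibia shafts was sequenced as read pairs. Alignment by the authors used STAR on GRCm38. The values they deposited are raw counts, 1 whole number per Ensembl gene and library, with no normalization. The submitters' processing notes also name Cufflinks, Cuffdiff, DESeq and bcl2fastq 2.20. The counting tool, strand setting and annotation release are not given in the sources used here, so overlapping and antisense genes are uncertain. The paper describes grinding of the bone under liquid nitrogen and the labels a tissue mincer, and the labels name library reagents of 2 makers. The deposited comparison tables (fold changes and p-values of the authors) and the columns of the other 8 mice were not used. The count matrix and the single-mouse files held the same counts for all 47069 genes.

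Counts were divided by their total on genes (CPM), and TPM used summed exon lengths of GENCODE M21, which held 46574 of the identifiers. The biological coefficient of variation came from edgeR 4.0.16 in R 4.3.3 (filterByExpr, TMM, estimateDisp with an intercept only), and DESeq2 1.42.0 gave alternative size factors. Sums, ratios and Wilson 95% intervals were computed in Python 3.11.15 with numpy 2.4.6, pandas 2.3.3 and scipy 1.17.1. Tested on simulated counts, the estimator returned the coefficient of variation put in. The 2-fold rule found the genes that had been changed, but at a coefficient near the measured one it also marked many that had not, so it describes spread between mice and is no test. A floor is 3 counts, and intervals and floors cover counting error only.

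A total of 506 of 507 listed genes were matched, with no match for *Ahsp*. The lists and the choice of these mice were made with earlier results of these data known. Genes named were the 30 highest in CPM, the 20 highest per length, list members, the 15 protein-coding genes with a mean CPM of at least 10 and the widest range (and the same outside the lists), and the 10 least variable with a mean CPM of at least 100. The alternatives were TMM and DESeq2 scaling, library totals with unassigned reads or without blood, muscle and epidermis lists, other filters, shares per length, and leaving out each mouse. Each library is a separate mouse, so the spread holds differences between animals, dissections and library preparations together. Some genes that the naming rule covers are not reported here.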

Additional observations from a re-analysis of the deposited data

Results flagged for a closer look

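Of 194 values looked at (tissue groups, lists and the genes named), 11 had 1 mouse whose gap to the nearest of the others, as a part of the whole range, exceeded Dixon's 95% critical value for 4 mice. Chance flags about 1 in 20, which is 9.7 of 194, and the values are not independent, since genes of the same tissue were measured in the same libraries. Some genes, *Actc1*, *Krt5* and *Dctn1* among them, were named for their wide or narrow spread over these same mice. The rate of 1 in 20 does not hold for such genes, so the flags are a description only. Mouse 4 was the distant one on the high side in 7 of them. The cartilage list (gap as a part of the range 0.834), with *Col2a1* (0.847) and *Col9a1* (0.856), was high in mouse 4, as were *Actc1* (0.919) and *Krt5* (0.831). The immediate early gene list (0.837) was also high in mouse 4 at 0.0354% of the counts against 0.026% to 0.0275% in the others, and so was *Fos* (0.841). Mouse 4 was lowest and distant for *Eef2* (0.846) and *Ctsg*, an early neutrophil granule gene (0.853). *Csf1r* was low in mouse 2 (0.936), at 177 CPM against 242 to 246 CPM in the other mice. *Dctn1*, one of the least variable genes, was high in mouse 3 (0.842).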

How the results depend on the processing

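Of 684 recomputed values for 77 results, 630 stayed within the spread between mice (shares) or within 1.5 times (counts and ratios). These were 339 of 376 for other processing and 291 of 308 for leaving out a mouse. The latter number is no measure of stability, as leaving out 1 of 4 mice cannot move a mean share by more than its SD. A ratio of highest to lowest also stays the same unless the highest or lowest mouse is left out. The 5 tissue groups kept their order of mice under all 4 other scalings. Another scaling changed the highest mouse for the marrow stroma, slow-fibre and dividing-cell lists and the lowest for the immediate early genes. The cause was not tested. Per gene length, the mean share was 3.82% for bone, 19.2% for marrow and 0.0818% for vessel, and 360 genes held 50% of the profile. With any gene counted in every mouse, 6652 genes (31.9%) varied over 2-fold. Leaving out each mouse gave 1102 (mouse 4 left out) to 2125 such genes, or 7.6% to 14.5%, and 1390 (9.43%) without mouse 2. The mean muscle share was then 0.802% (without mouse 4) to 2.2% and that of the cartilage, tendon, epidermis and nerve lists 0.145% (without mouse 4) to 0.294%. The range of the muscle share was 9.68-fold (without mouse 2) to 43.8-fold, and that of the cartilage, tendon, epidermis and nerve lists 2.69-fold (without mouse 2) to 11.5-fold. No paired analysis was possible because there is 1 group. Genes at a few counts in mouse 2, the shallowest library, are known only to within its floor.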
